A study of Homo sapiens with 12 samples.

Results

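The RNA listed for eIF3g comprised 401 clusters in 351 genes, of 1477 clusters in 479 genes deposited for eIF3a, eIF3b, eIF3d and eIF3g. A cluster is a short stretch of genome covered by sequenced fragments, and the eIF3g clusters are those that the authors' table assigns to that subunit. The lists of the other 3 subunits together held 1076 clusters in 439 genes. All groups came from 293T, a line derived from human embryonic kidney, whose cells received 100 µM 4-thiouridine for 14 h and ultraviolet light at 0.15 J per square cm. Per the labels, every library was made with an antibody to eIF3b, and each subunit has 3 replicate libraries, 12 in all. How a subunit was set apart beyond the excision of complexes from a gel is not given in the labels, and no control library is among the samples.

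eIF3 is the largest initiation factor and helps to bring the small ribosomal subunit to mRNA. eIF3g is one of its smaller subunits and carries an RNA recognition motif, a fold that binds single-stranded RNA. In PAR-CLIP, 4-thiouridine built into RNA crosslinks to bound protein, and reverse transcription then tends to copy the crosslinked base as a C, so that T-to-C conversions mark crosslinked uridines. Small nucleolar RNAs (snoRNAs), which recur below, guide chemical modification of ribosomal RNA and are cut from the introns of host genes, some of which encode protein and some of which do not.

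Each cluster carries a single value for its subunit, with the replicates joined and no column that names them. No value below therefore has a spread between libraries, no difference was tested, and a difference in reads can come from the depth of a list, which is unknown. The lists held 62405 reads for eIF3g and 15132, 19187 and 24150 for eIF3a, eIF3b and eIF3d, and no cluster had fewer than 8 reads. A cluster that is not listed is not shown to be at 0. Of 11 marker genes of other cell types, 0 were in the table, which lists crosslinked stretches and does not check the cell line.

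Clusters annotated as microRNA were in the eIF3a and eIF3d lists, while the eIF3g list had 0 of 401 clusters with that annotation (95% Wilson interval 0 to 0.949%, counting error only). Their sequences are shown because this was the class of annotation that the eIF3g list lacked, although the eIF3b list lacked it too. The class held 2 of 375 clusters in eIF3a (0.533%), 0 of 298 in eIF3b and 2 of 403 in eIF3d (0.496%). Those shares lie within the eIF3g interval, so its count of 0 does not set eIF3g apart. The class follows the authors' label alone, so a cluster in a microRNA host gene can stand under another label. MIR205HG, named as such a host, was annotated as lincRNA and had 81 reads in eIF3g and 24 in eIF3a. The table names only the hairpins hsa-mir-122 and hsa-mir-203a, so both mature arms are given, 5′ to 3′ as in RefSeq (GRCh38.p14), with the seed at bases 2 to 8 in capitals.
hsa-miR-122-5p: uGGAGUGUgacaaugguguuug
hsa-miR-122-3p: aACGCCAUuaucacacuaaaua
hsa-miR-203a-5p: aGUGGUUCuuaacaguucaacaguu
hsa-miR-203a-3p: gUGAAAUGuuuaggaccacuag
The hsa-mir-122 cluster had 13 reads and 15 conversions for eIF3a and 15 reads and 6 conversions for eIF3d. The hsa-mir-203a cluster had 10 reads in eIF3a and 19 in eIF3d. These counts lie near the lowest of 8 reads that any list holds, so their absence from the eIF3g and eIF3b lists was not distinguishable at this depth from a level just under that minimum. The 4 seeds all differed from each other.

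The eIF3g list was led by noncoding RNA. Of its 20 strongest clusters, 13 lay in noncoding RNA, 4 in introns and 3 in 5′ UTRs. The 5′ UTR clusters among the 20 strongest were 13 in eIF3a, 9 in eIF3b and 8 in eIF3d, and the noncoding ones were 2, 3 and 6. Introns had as many places in eIF3b, with 4, and had 2 each in eIF3a and eIF3d. These 20 clusters held 79.9% of the eIF3g reads, against 34.1% in eIF3a, 58.8% in eIF3b and 52.8% in eIF3d for the 20 strongest of each list. The single strongest cluster held 23.8% of the eIF3g reads, whereas the strongest of eIF3a held 4.52%, that of eIF3b 10.2% and that of eIF3d 13.7%.

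**Figure D1:**
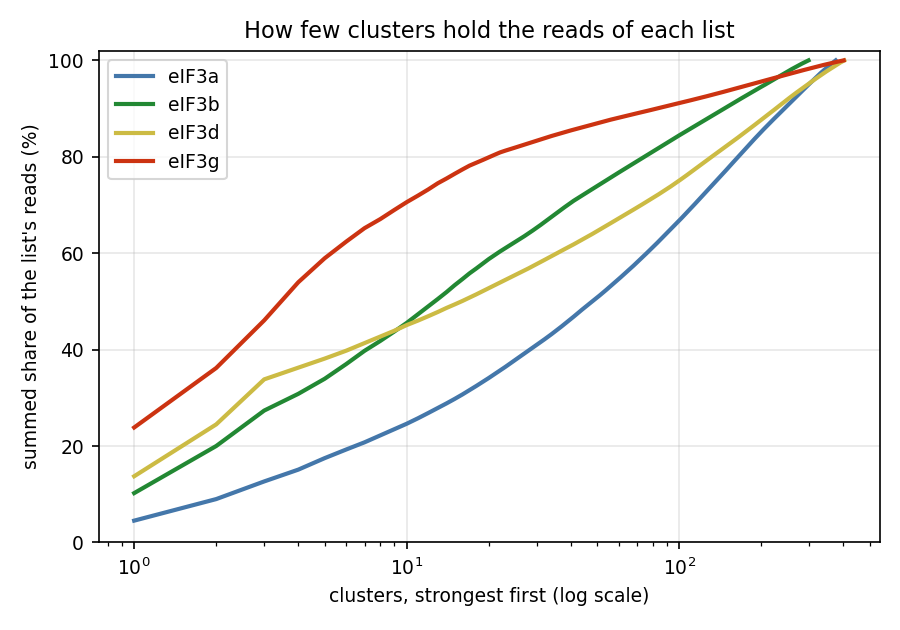
The share of a list's reads (vertical axis, percent) held by its strongest clusters, added from the strongest on (horizontal axis, number of clusters on a log scale), with 1 line for each subunit. The eIF3g line lies highest over the 20 strongest clusters, where it reaches 79.9%, and meets the eIF3b line only far down the lists.

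SNHG1, a noncoding host of 8 snoRNA genes in the reference table, gave the strongest cluster (chromosome 11, 62621139 to 62621166, minus strand, hg19). It held 14879 reads in eIF3g, 377 in eIF3d and 13 in eIF3b, and was not listed for eIF3a. A further SNHG1 cluster had 801 reads in eIF3g and 43 in eIF3d, and another had 554 in eIF3g and 32 in eIF3d. Neither was listed for eIF3a or eIF3b. GAS5, a noncoding host of 11 snoRNA genes, had 6165 reads (chromosome 1, 173835116 to 173835166, minus strand) in eIF3g, 324 in eIF3d and 16 in eIF3b. Its other cluster, with 1173 reads, was listed for eIF3g and no other subunit. The lincRNA RP11-329L6.1 had 7707 reads in eIF3g and 25 in eIF3d (chromosome 17, 62223481 to 62223511, plus strand).

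Introns of 4 protein-coding hosts also had more reads in eIF3g than in the other lists. GNL3, a nucleolar GTP-binding protein whose gene holds 5 snoRNA genes, had 4929 intronic reads in eIF3g and 209 in eIF3d (chromosome 3, 52726758 to 52726793 over both lists, plus strand). RBMX, an RNA-binding protein of the hnRNP family with 1 snoRNA gene inside, had 1179 intronic reads in eIF3g and 57 in eIF3d. RPL17, a protein of the large ribosomal subunit with 3 snoRNA genes inside, had 794 and 42. RPL23A, also of the large subunit and with 4 snoRNA genes inside, had 501 reads in an intron (chromosome 17, 27049602 to 27049640, plus strand) in eIF3g and was in no other list. None of these 4 intronic clusters was listed for eIF3a or eIF3b. Where the clusters lie relative to each snoRNA was not determined, since the reference table is of another genome build.

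**Figure D2:**
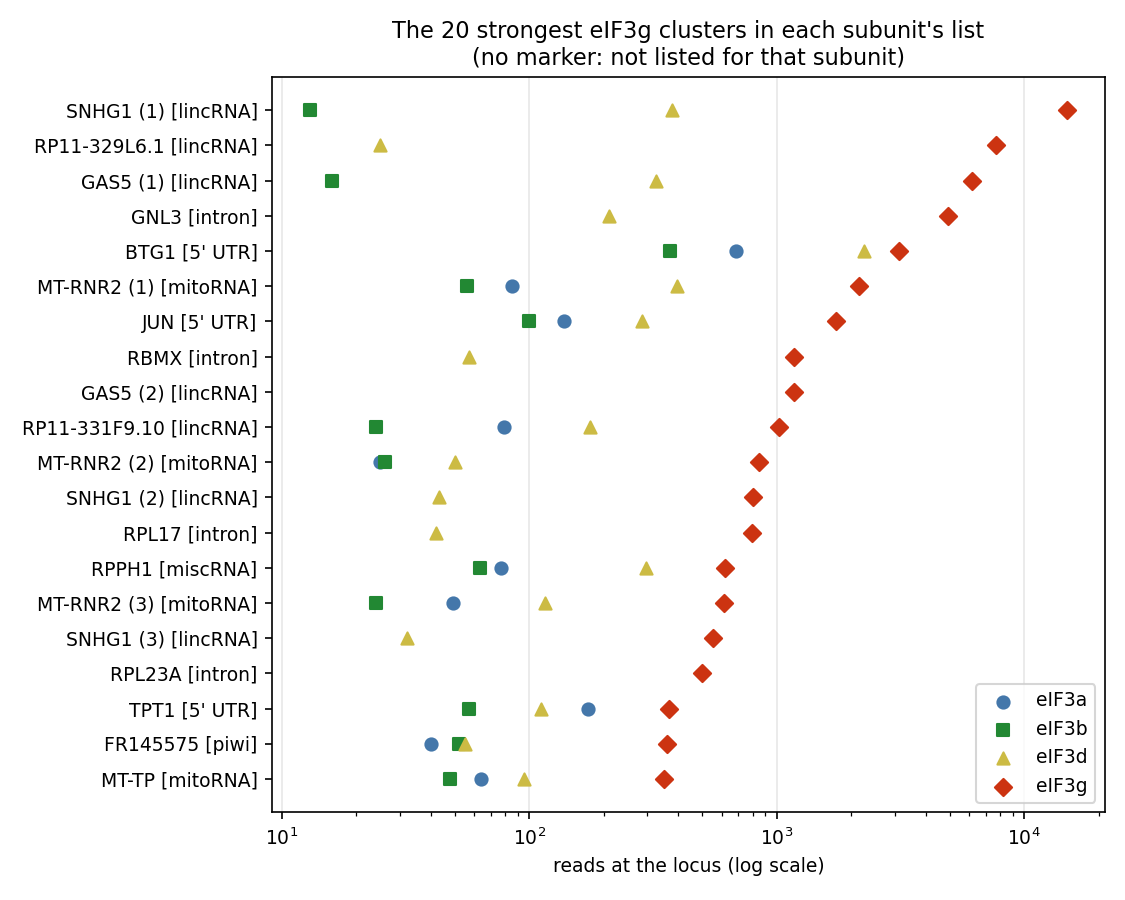
Reads at the loci of the 20 strongest eIF3g clusters (horizontal axis, log scale), with a marker for each subunit that lists the locus, where a locus joins clusters that overlap directly or in a chain. eIF3g is the rightmost marker at each of the 20 loci, and eIF3d markers stand at 18 of them, against 10 for eIF3a and 12 for eIF3b.

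Counted over the whole list, noncoding or intronic clusters in genes that hold a snoRNA in the reference table numbered 12 in eIF3g, from 9 genes. They held 31045 reads, or 49.7% of the list. The same class had 10 clusters and 1163 reads (4.82%) in eIF3d, 4 clusters and 145 reads (0.756%) in eIF3b, and 3 clusters and 71 reads (0.469%) in eIF3a. Other hosts did not follow this order. SNHG15 had 41 reads in eIF3g, 37 in eIF3d, 48 in eIF3a and 105 in eIF3b. RCC1, the exchange factor of the Ran GTPase, had 19 intronic reads in eIF3g, 21 in eIF3d and 10 in eIF3a, and SRCAP, a chromatin remodeller, had 10, 21, 13 and 11 in eIF3g, eIF3d, eIF3a and eIF3b. Large eIF3g counts in this class were thus those of 6 host genes, SNHG1, GAS5, GNL3, RBMX, RPL17 and RPL23A. RP11-329L6.1, with 7707 reads, did not match the reference table, so whether it holds a snoRNA gene was not determined.

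Other structured RNAs also had more raw reads in eIF3g than in each other list, though the eIF3g list holds more reads in all. RPPH1, the RNA of ribonuclease P, had 619 reads in eIF3g, 296 in eIF3d, 77 in eIF3a and 63 in eIF3b. The lincRNA entry RP11-331F9.10 had 1021 reads in eIF3g, 176 in eIF3d, 79 in eIF3a and 24 in eIF3b at its shared locus. VTRNA1-2, a small cytoplasmic vault RNA, had 171, 45, 10 and 8 in the same order. Over its clusters MT-RNR2, the large mitochondrial ribosomal RNA, had 3790 reads in eIF3g, 618 in eIF3d, 186 in eIF3a and 132 in eIF3b. MT-RNR1, the small one, had 292 in eIF3g and 44 in eIF3d and was not listed for eIF3a or eIF3b. MT-TP, a mitochondrial transfer RNA, had 351 reads in eIF3g, 95 in eIF3d, 64 in eIF3a and 48 in eIF3b. The exception in this group was RNA5-8SP2, a copy of a small ribosomal RNA, with 37 reads in eIF3g, 34 in eIF3d, 132 in eIF3a and 712 in eIF3b. Reads of such copies may be shared with near-identical genes, so the assignment of that entry is uncertain.

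Among mRNAs, BTG1 and JUN stood out in eIF3g by raw reads. As a share of a list's reads, both together held 7.76% in eIF3g, 10.5% in eIF3d, 5.43% in eIF3a and 2.46% in eIF3b. BTG1, an anti-proliferative gene, ranked 5 among the eIF3g clusters with 3109 reads in its 5′ UTR, against 684 in eIF3a, 372 in eIF3b and 2256 in eIF3d. JUN, a transcription factor gene, ranked 7 with 1735 reads, against 138, 100 and 286. Within each list both were already near the top: the percentile rank of BTG1, where 100 is the strongest cluster, was 99.0 in eIF3g and between 97.3 and 100 in the others, and that of JUN was 98.5 in eIF3g, 96.0 in eIF3a, 88.3 in eIF3b and 97.8 in eIF3d. TPT1, whose mRNA is strongly controlled at translation, had 368 reads in eIF3g, 172 in eIF3a, 57 in eIF3b and 112 in eIF3d. DDX39B, a helicase of mRNA export, had fewer reads in eIF3g than in each other list, with 306 against 361, 665 and 451.

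The noncoding lead was a matter of reads rather than of clusters. Noncoding RNA made up 8.98% of the eIF3g clusters (36 of 401, Wilson interval 6.56 to 12.2%) and 7.99% of the clusters of the other lists together (86 of 1076, 6.52 to 9.77%), and introns 9.23% and 8.18%. By reads noncoding RNA held 62.8% of the eIF3g list, against 8.21% in eIF3a, 8.57% in eIF3b and 11.5% in eIF3d. The intronic share of reads was 14.0% in eIF3g and 14.7% in eIF3b, with 10.5% in eIF3a and 5.68% in eIF3d, so it did not set eIF3g apart. In noncoding RNA the median cluster had 125.5 reads in eIF3g and 35.5 in the others. In 5′ UTRs the medians were 19 and 21 reads, and 5′ UTR clusters were 68.3% of the eIF3g list and 67.6% of the others. Outside noncoding RNA and introns the eIF3g list held 14495 reads, within the range of 12304 to 20006 for the other subunits.

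The place of 5′ UTRs changed down the eIF3g list. They were 3 of the 20 strongest clusters (15.0%), 29 of the next 60 (48.3%), 56 of the 80 after that (70.0%) and 63 of the 81 weakest (77.8%). The 20 strongest clusters ran from 351 to 14879 reads and the 81 weakest from 8 to 12.

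T-to-C conversions per read split the eIF3g list. The median over clusters was 1.02, with a 95% order-statistic interval of 1.0 to 1.05 that covers clusters and not libraries. The summed conversions over summed reads, however, came to 0.281. In the 20 strongest clusters the median was 0.0539, and in each later band of the list it lay between 1.0 and 1.05. The medians of the 20 strongest clusters of eIF3a and eIF3b were 1.05 and 1.12. That of eIF3d was 0.0225, and eIF3d as a whole list had a low median of 0.182. Whether eIF3d conversions were counted as in the other lists is not given. PKNOX2 had 2 conversions in 60 reads in eIF3d, against 130 in 65 in eIF3g. The eIF3d ratios here and below may therefore not be the same measure as the others.

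With a threshold of 0.2 conversions per read, set after the values were seen, 34 eIF3g clusters fell below it (8.48% of the list). The corresponding shares of clusters were 5.6% in eIF3a, 6.38% in eIF3b and 54.6% in eIF3d. The 34 clusters held 47805 reads, or 76.6% of the eIF3g reads, and 15 of them were among the 20 strongest. Of all reads in a list, the low clusters of eIF3a had 14.1%, those of eIF3b 31.0% and those of eIF3d 86.6%. By class the 34 were 20 noncoding, 4 intronic, 5 in 5′ UTRs, 3 in coding exons and 2 in 3′ UTRs. They were also wider, with a median of 35 nt against 24 nt for the remaining 367 clusters.

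Named clusters show both sides of this split. SNHG1 had 654 conversions in 14879 reads, GAS5 156 in 6165, GNL3 304 in 4929 and RPPH1 20 in 619. BTG1 with 294 in 3109 and JUN with 142 in 1735 were among the 5 low clusters in 5′ UTRs. In contrast, MT-RNR2 had 1885 conversions in the 2159 reads of its strongest cluster, DDX39B had 336 in 306 and UBE2D2, a ubiquitin-conjugating enzyme, had 212 in 199. All 6 eIF3g clusters in mRNAs of eIF3 subunits were low: EIF3M had 10 conversions in 63 reads, 5 in 120, 3 in 50 and 8 in 131, EIF3B had 4 in 82 and EIF3A had 2 in 48.

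Loci of the 34 low clusters tended to be low elsewhere as well. eIF3a listed 17 of them, 11 below 0.2 and with a median of 0.125 conversions per read, and eIF3b listed 17, 10 below 0.2 and with a median of 0.143. At eIF3d all 23 listed loci were below 0.2, in a list where such values are common. JUN was among the loci that were not, with 78 conversions over 138 reads for eIF3a and 80 over 100 for eIF3b. What the eIF3g reads without conversions are was not tested.

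**Figure D3:**
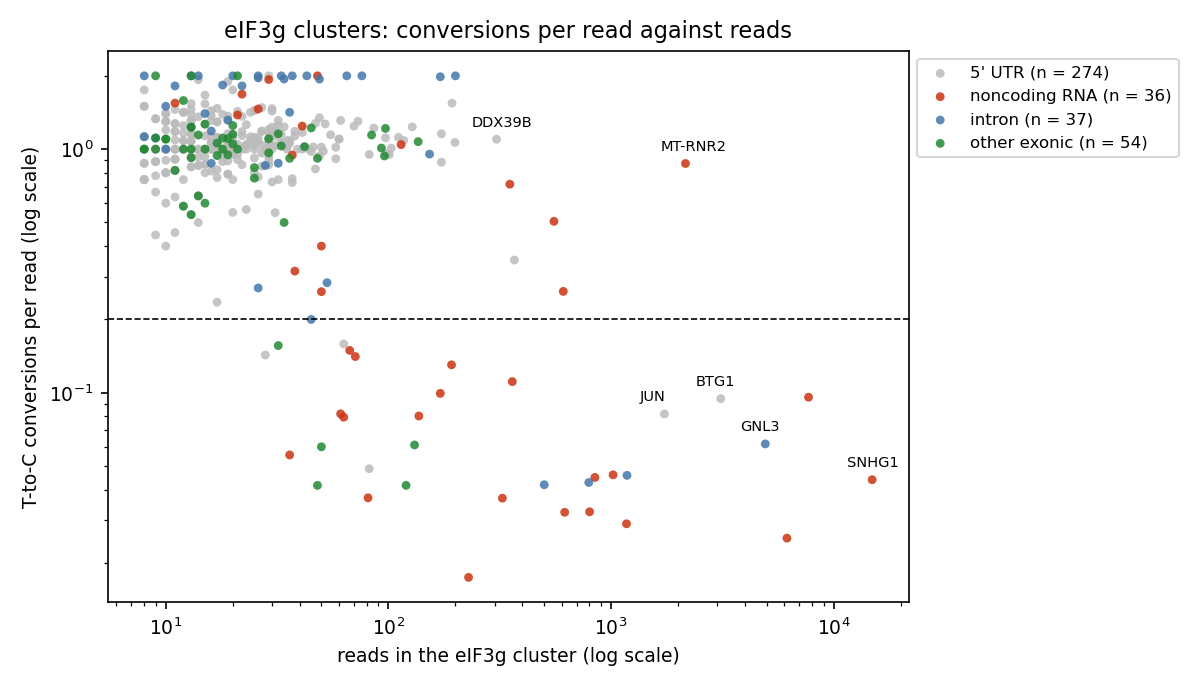
T-to-C conversions per read (vertical axis, log scale) against reads (horizontal axis, log scale) for the 401 eIF3g clusters, coloured by class, with a dashed line at 0.2. Most 5′ UTR points gather near 1.0, while SNHG1, GNL3, BTG1 and JUN lie below the line at the right edge.

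Most eIF3g clusters had a counterpart in another list. Of the 401, 170 overlapped a cluster of all 3 other subunits by at least 1 nt on the same strand, 117 overlapped clusters of 2, 63 of 1 and 51 of none. Clusters overlapping eIF3d numbered 292 and held 93.0% of the eIF3g reads, those overlapping eIF3a numbered 282 and held 33.8%, and those overlapping eIF3b numbered 233 and held 65.8%. The borders were often the same: 160 of the 282 that overlapped eIF3a had the same start and end there (56.7%), as did 50.3% of those overlapping eIF3d and 48.1% of those overlapping eIF3b. Clusters shared with eIF3d and no other subunit were 30, with 16522 reads, most of them from RP11-329L6.1, GNL3 and RBMX. Those shared with eIF3a alone were 20, with 494 reads, and with eIF3b alone 13, with 210 reads. Weaker clusters were shared less widely, with a median of 29 reads for those in all 4 lists and 14 for those in eIF3g alone.

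**Figure D4:**
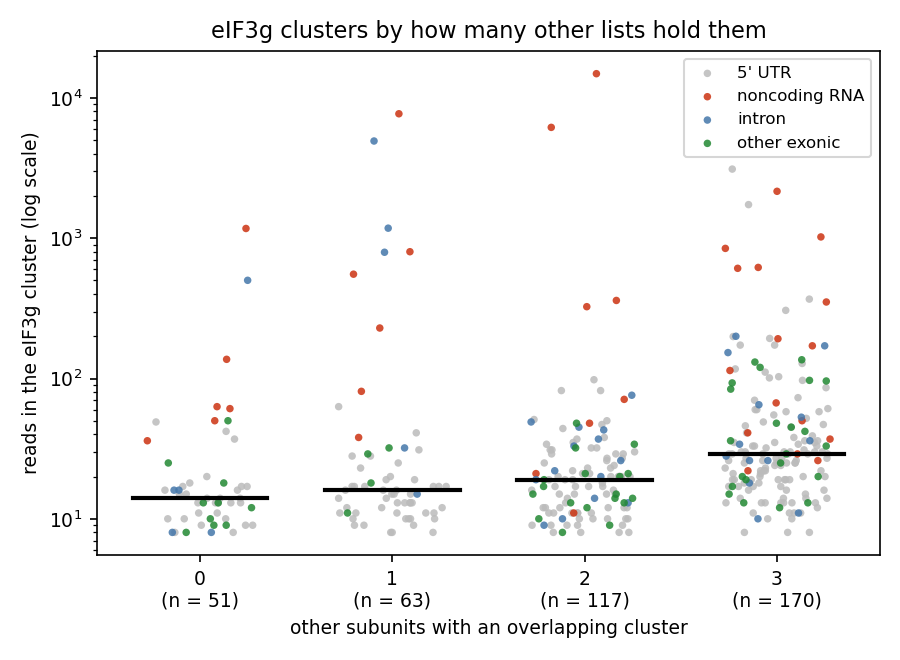
Reads of each eIF3g cluster (vertical axis, log scale) by the number of other subunits with an overlapping cluster (horizontal axis, points spread sideways at random), coloured by class, with black bars at the medians of 14, 16, 19 and 29 reads. The highest points with 0 or 1 other subunit are noncoding or intronic.

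The 51 clusters listed for eIF3g alone were 12.7% of its list. The same count was 4.53% of the eIF3a list, 5.37% of the eIF3b list and 8.68% of the eIF3d list. Of the 51, 30 were in 5′ UTRs, 6 in noncoding RNA, 5 in coding exons, 5 in introns, 3 at start codons and 2 in 3′ UTRs. They were mostly near the lowest reads of the table: 14 of the 50 eIF3g clusters with up to 10 reads were listed alone (28%), against 7 of 128 with 21 to 50 reads (5.47%) and 5 of 70 with more (7.14%). Among clusters at or above the eIF3g median of 20 reads, 13 were listed for eIF3g alone. With eIF3d left out of the comparison the count was 81.

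The strongest of them were noncoding, intronic or mitochondrial. After GAS5 with 1173 reads and RPL23A with 501 came MT-RNR2 with 137, MT-RNR1 with 63 and RNU12, the U12 RNA of the minor spliceosome, with 61. The piwi entry FR023255, on the mitochondrial chromosome, had 50 reads and the lincRNA AC005682.5 had 36. Conversions were few in several of these, with 34 in GAS5, 21 in RPL23A, 11 in MT-RNR2, 5 in MT-RNR1 and 5 in RNU12. EIF3M, the mRNA of an eIF3 subunit, had a cluster of 50 reads with 3 conversions that is annotated as 3′ UTR. It lies upstream of the coding exon cluster of the same gene, so that annotation is uncertain.

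Clusters in 5′ UTRs or at start codons carried more conversions per read. TLE3, a transcriptional corepressor, had a 5′ UTR cluster of 49 reads and 46 conversions on the minus strand of chromosome 15, from 70389201 to 70389224. ARIH1, a ubiquitin ligase, had 37 and 27, and GTPBP3, an enzyme of mitochondrial transfer RNA modification, had 25 and 19 at its start codon. Over the 30 clusters in 5′ UTRs the reads ran from 8 to 49, with a median of 13.5 and a median close to 1 conversion per read.

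By gene, 40 of the 351 eIF3g genes had a cluster in no other list. The same gene count was not made for the other subunits, so whether 40 is many for such a list is not shown. The other 11 of the 51 clusters lay in genes that another subunit lists elsewhere, at 9 nt in PTBP1, a splicing repressor, 45 nt in MTPN and 50 nt in RNU12, and at up to 1544 nt in EIF3M. In PTBP1 the eIF3g cluster with 15 reads had a neighbour of 11 reads in eIF3g that overlapped one of 46 reads in eIF3b and one of 10 in eIF3d.

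Ranks by reads were compared at the 173 loci listed for all 4 subunits. A rank is not changed by multiplying all reads of a list, but it does depend on how many weak clusters a list holds. A locus joins clusters that overlap directly or in a chain. The rank of a cluster is its percentile among the clusters of its own list, and the shift is the eIF3g percentile minus the mean of the other 3. A shift of 25 points or more was counted. eIF3g ranked higher by that measure at 27 loci (15.6%) and lower at 21 (12.1%), with a median shift of -0.82 points. The same measure gave 10.4% higher and 13.3% lower for eIF3a, 9.83% and 24.3% for eIF3b and 12.7% and 11% for eIF3d, so the eIF3g counts lay near those of the other lists. At all 27 of the higher loci eIF3g stood above each other subunit, and at 18 of the 21 lower ones it stood below each. As a description, Spearman's rho of reads over these loci, which share an antibody and annotation, was 0.58 for eIF3g with eIF3d, 0.44 with eIF3a and 0.39 with eIF3b, and from 0.49 to 0.68 among the other pairs.

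Median shifts varied between classes. Of 17 noncoding loci, 5 ranked higher in eIF3g and 0 lower, with a median shift of 12.7 points. Introns had 4 of 14 higher and 1 lower, with a median of 3.50 points. Coding exons had 1 of 10 higher and 0 lower, with a median of 7.03 points. Loci annotated as 3′ UTR had 2 of 4 higher and 0 lower, with the highest median of any class, 27.1 points. Of these 4, the EIF3M locus lies upstream of a coding exon cluster of that gene, so its annotation is uncertain. The 5′ UTRs had 15 of 120 higher and 19 lower, with a median of -4.79 points. With reads scaled to the sum outside noncoding RNA and introns, the median log2 difference of eIF3g from the mean of the others was -0.05 over all 173 loci, -0.19 in 5′ UTRs, 0.50 in coding exons, 0.72 in introns, 1.29 in 3′ UTRs and 1.5 in noncoding RNA.

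The largest upward shift was that of VTRNA1-2, at percentile 92.6 in eIF3g and at 10.8, 3.02 and 79.3 in eIF3a, eIF3b and eIF3d, a shift of 61.6 points. ARF4, a small GTPase of the Golgi, had 97 reads in its coding sequence in eIF3g against 27, 8 and 14 in eIF3a, eIF3b and eIF3d, the next largest shift. MGAT5, a glycosyltransferase, had 34 intronic reads in eIF3g against 14, 8 and 10. CTNNAL1, a relative of the alpha-catenins, had 49 intronic reads against 9, 10 and 26, where the eIF3a cluster joined the locus only through that of eIF3d. HIST1H2BJ, a histone gene, had 53 reads in a stretch annotated as intron against 11, 18 and 18.

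Some 5′ UTRs also ranked higher. HNRNPC, an hnRNP that binds uridine tracts, had 60 reads in eIF3g against 14 in eIF3a, 12 in eIF3b and 30 in eIF3d, a shift of 45.0 points. AMOT, a scaffold protein of Hippo signalling, had 55 reads at one of its loci against 27, 11 and 14, a shift of 49.7 points. Another AMOT locus in the 5′ UTR had 58 reads in eIF3g against 100, 109 and 205, so loci of a single gene differed in order.

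HNRNPA0, another hnRNP, showed this most sharply. Its locus from 137089820 to 137089876 on chromosome 5, minus strand, had 46 reads in eIF3g against 15, 19 and 11 in eIF3a, eIF3b and eIF3d, a shift of 47.2 points. The locus from 137089958 to 137089985 had 8 reads in eIF3g, the fewest a list holds, against 42, 113 and 39. That was the largest downward shift, at -77.4 points. Both loci lie in the 5′ UTR.

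All 8 of the largest downward shifts were in 5′ UTRs. RPS2, a protein of the small ribosomal subunit, had 8 reads in eIF3g against 32, 19 and 46 in eIF3a, eIF3b and eIF3d, a shift of -63.7 points. DCUN1D5, which promotes cullin neddylation, had 11 against 45, 28 and 49. RAD54L, a motor protein of homologous recombination, had 13 against 56, 33 and 41. RANGAP1, the activator of the Ran GTPase, had 11 against 57, 14 and 41, and C9orf40 had 12 against 30, 21 and 54. TMEM33, a membrane protein of the endoplasmic reticulum, had 10 against 32, 21 and 22, and EEF2, the factor that moves the ribosome along mRNA, had 8 against 22, 14 and 23. In eIF3g the 8 reads of RPS2 carried 7 conversions, the 11 of DCUN1D5 carried 14 and the 12 of C9orf40 carried 7.

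**Figure D5:**
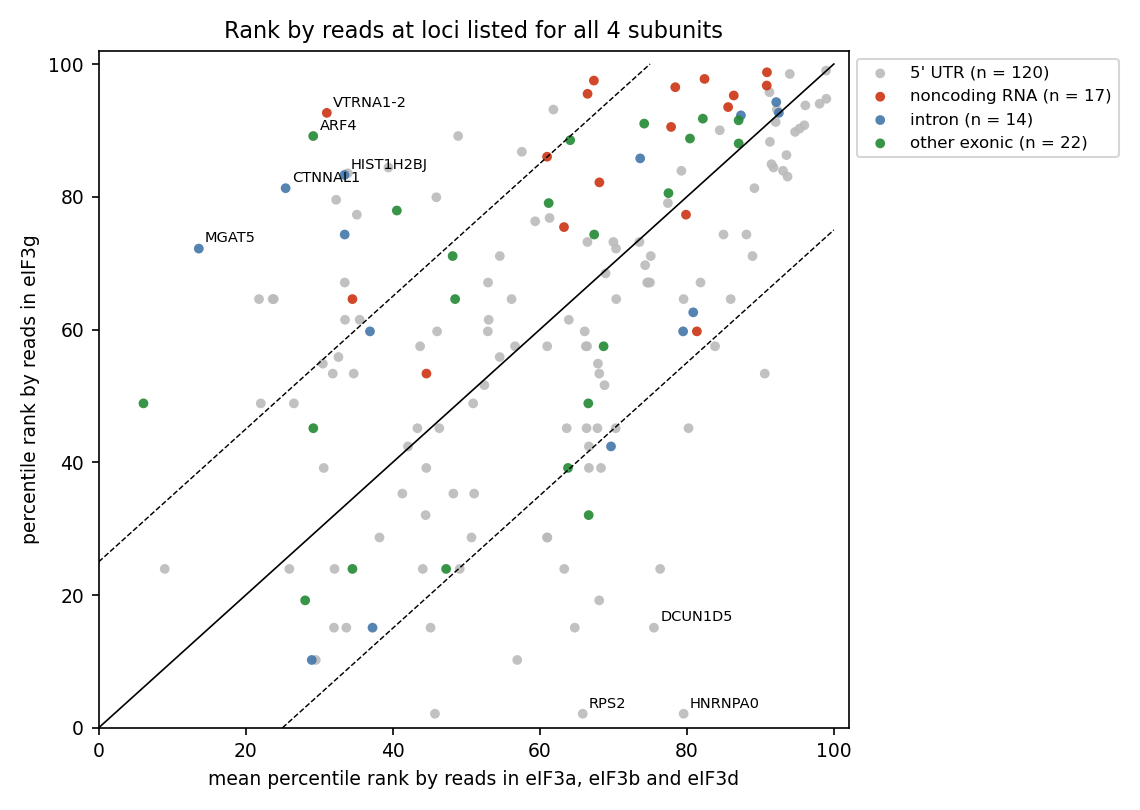
Percentile rank by reads in eIF3g (vertical axis) against the mean percentile rank in eIF3a, eIF3b and eIF3d (horizontal axis) at the 173 loci listed for all 4 subunits, coloured by class, with dashed lines 25 points from the diagonal. Above the upper dashed line stand 27 loci, among them VTRNA1-2 and ARF4, and below the lower one 21, and most noncoding loci stand above the diagonal.

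Genes listed for eIF3a, eIF3b and eIF3d and missing for eIF3g numbered 16 of 177 (9.04%). Leaving out another subunit in the same way gave 11% for eIF3a, 25.5% for eIF3b and 12% for eIF3d. The missing genes had few reads elsewhere: their strongest cluster in the other lists had a median of 25.5 reads, against 47 for the 161 genes of all 4 lists. None of the 16 had clusters at or above the median reads of each of the other 3 lists.

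LINC00613, a noncoding RNA, was the strongest of the 16, with 272 reads in eIF3a, 13 in eIF3b and 9 in eIF3d (chromosome 4, 136833708 to 136833728, minus strand). COA4, an assembly factor of cytochrome c oxidase, had 36, 15 and 29 reads in its 5′ UTR, and SLC16A1, a lactate transporter, had 31, 24 and 22. TRA2A, a splicing factor, had 36, 13 and 12, PPP2R5A, a regulatory subunit of protein phosphatase 2A, had 8, 10 and 34, and BEX2 had 13, 11 and 24. RPL9, of the large ribosomal subunit, had 9, 22 and 15. Clusters in coding exons were those of AMOTL1, a relative of AMOT, with 15, 12 and 39 reads, and CNTNAP2, a neuronal adhesion protein, with 27, 11 and 19. KRT10, a keratin, had 13, 39 and 10 reads in its 3′ UTR, at separate places in eIF3a and the other lists.

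A single gene held most of the strong signal of the other lists that eIF3g lacked. Of 558 loci, 157 were not listed for eIF3g, and 7 of these had over 100 reads in another list. In EIF3A, which encodes the largest eIF3 subunit, 4 of those 7 loci lay in the coding sequence. At chromosome 10, 120833313 to 120833368, minus strand, EIF3A had 1963 reads in eIF3b and 3315 in eIF3d. At 120829052 to 120829168 it had 224 in eIF3a, 1411 in eIF3b and 2599 in eIF3d. In eIF3g the gene kept 1 cluster in a coding exon, with 48 reads, where eIF3a, eIF3b and eIF3d had 61, 21 and 76. The other loci were an intron of LIMCH1, which acts on the actomyosin cytoskeleton, where eIF3a had 677 reads and eIF3b 587, the 3′ UTR of EIF3H with 370 in eIF3a, and LINC00613.

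Gene lists, chosen with earlier results of these data known, place these loci by role. Of all 479 genes of the table, 351 (73.3%) had an eIF3g cluster, 328 (68.5%) one in eIF3a, 264 (55.1%) in eIF3b and 356 (74.3%) in eIF3d, and the counts below stand beside these shares. Of the 401 eIF3g clusters, 68.3% lay in 5′ UTRs. Of snoRNA host genes 15 were in the table and 14 had an eIF3g cluster, against 9 in eIF3a, 8 in eIF3b and 11 in eIF3d. At the 5 loci of these genes in all 4 lists the median shift was -18.3 points, against -0.82 over all loci. That median is the shift of RPL24, which holds no snoRNA gene in the reference table. Other genes that do hold 1 or more, among them TPT1, ATP5B, DDX39B and RBMX, were not among the genes chosen. The 5 loci are those of RPS2, EEF2, RPL24, SNHG15 and DKC1, of which 1 ranked higher by at least 25 points and 2 lower. RPL24 had 28 intronic reads in eIF3g against 69, 30 and 61 in eIF3a, eIF3b and eIF3d. DKC1, the higher one, was at percentile 61.5 in eIF3g and at 38.4, 17.1 and 51.0 in eIF3a, eIF3b and eIF3d. GNB2L1 had 11 reads in eIF3g and 22 in eIF3a. None of the strong eIF3g loci of SNHG1, GAS5 and GNL3 is among the 5. Of the eIF3 subunit mRNAs 3 had an eIF3g cluster, with 494 reads, against 922 reads in eIF3a, 5639 in eIF3b and 6334 in eIF3d. EIF3M had more reads in eIF3g, with 364 against 116, 114 and 149 in eIF3a, eIF3b and eIF3d, and EIF3B had 82 against 54, 19 and 53.

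Cytosolic ribosomal proteins had 9 of 11 genes in eIF3g, 6 clusters of them in 5′ UTRs. Apart from RPL17 and RPL23A they had few reads: RPS15A had 70 in eIF3g against 103, 123 and 136 in eIF3a, eIF3b and eIF3d, and RPS4X had 30 against 45, 37 and 40. Splicing and hnRNP proteins had 14 of 17 genes in eIF3g, with 18 of 19 clusters in 5′ UTRs and a median shift of -3.03 points at 13 loci, 3 of them higher and 2 lower. U2AF2, the large subunit of the factor that reads polypyrimidine tracts, had 105 reads against 166, 119 and 100. SRSF5, a splicing regulator, had 97 reads against 36, 9 and 33, and SNRPA, a protein of the U1 particle, had 84 against 141, 31 and 163.

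Other translation factors had 6 of 7 genes in eIF3g. EIF5, which triggers GTP hydrolysis at the start codon, had 99 reads against 101 in eIF3a, 94 in eIF3b and 15 in eIF3d. LARP1, a regulator of mRNAs with a terminal pyrimidine tract, had 26 intronic reads against 14, 8 and 43. EIF1, a factor in start codon selection, had 23 against 16 in eIF3a and 8 in eIF3d. Histones had 9 of 14, with 93 reads in HIST1H2AD against 83, 9 and 109, and with 36 reads each in H1FX, against 111, 46 and 87, and HIST1H2BO, against 60, 13 and 63.

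Cell cycle genes had 7 of 8 in eIF3g. CDC25A, which removes inhibitory phosphates from cyclin-dependent kinases, had 119 reads against 34 in eIF3a, 10 in eIF3b and 85 in eIF3d. CCNG1, a cyclin, had 60 against 75, 155 and 111, and CCND2, also a cyclin, had 35 against 31, 49 and 24. MCM7, of the replicative helicase, had 45 reads in a cluster annotated as intron, against 80 in eIF3a and 79 in eIF3d. Which RNA these intronic reads come from was not determined. GMNN, an inhibitor of replication licensing, had 17 reads and was in no other list.

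Chaperones had 6 of 8 genes in eIF3g, with 193 reads in PTGES3, a co-chaperone of HSP90, against 192, 239 and 159 in eIF3a, eIF3b and eIF3d, 51 in TCP1, against 27 in eIF3a and 35 in eIF3d, 39 in BAG3 against 35, 27 and 48, and 35 in CANX against 53, 24 and 31. Chromatin regulators had 6 of 7, with 117 reads in MORF4L2 against 157, 183 and 225, 47 in BRD2 against 59 in eIF3a and 48 in eIF3d, 27 in CBX3 against 17, 36 and 38, and 22 in SMARCA5 against 46, 24 and 30. The ubiquitin and proteasome list had 4 of 4, with 199 reads in UBE2D2 against 554, 276 and 589, 21 in PSMD14 against 52, 20 and 37, 20 in UBE2V1 against 12, 13 and 12, and 11 in UBB against 60 in eIF3a and 30 in eIF3d. Members of these lists stood on both sides of the other subunits in raw reads, and the lists are too short to set their counts apart from the share of 73.3% over all genes.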

How the data were processed

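Crosslinked RNA from 293T cells was read from 1 deposited table of clusters, which carries gene, hg19 position, strand, annotation, reads and T-to-C conversions for each subunit. Reads are counts that the authors deposited as whole numbers, per the file headers, and conversions are whole numbers too. Whether conversions were counted alike in each list is not given. SUPT3H had 2 in 220 reads in eIF3d, against 400 in 200 in eIF3g. The submitters' processing notes name hg19 as build, and cutadapt, Bowtie and bedtools with no version. Not given in the sources used here are the cluster caller and its threshold, how 3 replicates were joined, whether the random 5′ tag of replicate 1 was used to remove duplicates, and whether positions count from 0 or 1. Analysis used Python 3.11.15 with pandas 2.3.3 and numpy 2.4.6, and the overlap and rank steps were checked on simulated data. Names matched a RefSeq table for 455 of 479 genes, which served for symbols and for snoRNA genes inside a host. Wilson intervals at 95% used scipy 1.17.1 and cover counting error only. Noncoding RNA joins the authors' lincRNA, miRNA, miscRNA, mitoRNA, piwi and rRNA classes.

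The members and gene lists were chosen with earlier results of these data known. Named were the 12 strongest eIF3g loci, the 12 strongest listed for eIF3g alone, the 8 largest rank shifts each way, the 10 missing genes with most reads, up to 4 genes per list by eIF3g reads, and JUN and BTG1. Other names were chosen after their values were seen, and some items are not reported here. Alternatives changed overlap, ranks, scaling, read minimum and the subunits compared. With pooled values no test between groups was run.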

Additional observations from a re-analysis of the deposited data

How the results depend on the processing

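No paired analysis was possible because the table has no replicate column, and for the same reason no replicate could be left out. When weaker clusters than the median were dropped, the 5′ UTR share of eIF3g clusters was 60.1% in place of 68.3%, the clusters listed for eIF3g alone were 13 in place of 51, and the missing genes were 0 in place of 16. Without its 5 strongest clusters the eIF3g list had 40.7% of its reads in noncoding RNA in place of 62.8%. Leaving out eIF3d gave 81 clusters for eIF3g alone and 42 loci ranked higher in place of 27, and leaving out eIF3b gave 37 ranked lower in place of 21, both over more loci since fewer lists had to hold them. Summed conversions over summed reads gave 0.281 in place of a median of 1.02. Clusters under 0.1 and under 0.3 conversions per read, thresholds added after seeing the data, held 75.3% and 77.9% of the reads in place of 76.6%. The other 23 comparisons of a result with an alternative stayed within 1.5 times the count or within the interval of the share. Depth per library is unknown, and clusters just above 8 reads may be missing from a list through depth alone.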

Other observations

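A group of eIF3g clusters carried close to 2 conversions in every read. At 26 clusters the ratio was 1.8 or more, a threshold set after the values were seen, and at 16 it was exactly 2, which no cluster of any list exceeded. Of the 26, 18 were intronic. SUPT3H had 400 conversions in 200 reads, CEP85 339 in 171, ZNF750 152 in 76, PKNOX2 130 in 65 and ZNF268 86 in 43. The same threshold found 19 clusters in eIF3a, 12 of them intronic, and 18 in eIF3b, 13 of them intronic. It found 0 in eIF3d, whose conversions may have been counted otherwise. CEP85 had 286 conversions in 144 reads in eIF3a, 244 in 122 in eIF3b and 2 in 74 in eIF3d. SUPT3H had 221 in 111, 131 in 66 and 2 in 220 in the same order. The introns of snoRNA hosts with most eIF3g reads lay far from this ratio, with 304 conversions in 4929 reads in GNL3, 54 in 1179 in RBMX, 34 in 794 in RPL17 and 21 in 501 in RPL23A. The source of these ratios was not tested.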
